A study of Mus musculus with 24 samples.

Results

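The Fras1 and Frem proteins form a complex in the basement membrane, the sheet of matrix under an epithelium or mesothelium, and 6 genes of this complex and of the proteins it works with were followed through diaphragm development: Fras1, Frem1, Frem2, Grip1, Npnt and Itga8. They were chosen by name, for their known place in the complex, with earlier results of these data known. Each was read from 1 probe set that matches that gene alone. All 6 were measured, among 19351 genes in all. The samples are 24 tissues of C57BL/6J mouse embryos, with no mutation or treatment named, each cut by laser capture from frozen sections and hybridised to its own Affymetrix array. Each of 3 stages has 8 arrays: the pleuroperitoneal folds, transient tissue that contributes to the diaphragm, on embryonic days E11.5 and E12.5, then the developing diaphragm on E16.5. The sample titles call all 3 tissues folds, and sections were transverse at the earlier stages and sagittal at E16.5. The labels do not say which embryo a sample came from, so p-values measure the spread between arrays, which may be technical in part. In a tissue sample, fewer cells of a type and less RNA per cell cannot be told apart.

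Fras1 and Frem2 are large proteins anchored in the membrane of epithelial cells with a matrix-facing part, while Frem1 is secreted, mainly by mesenchyme. In mouse embryos the 3 proteins stabilise each other at the basement membrane, and loss of any of them gives embryos with skin blisters. Grip1 is a cytoplasmic scaffold of PDZ domains that binds Fras1 and helps to bring it to the basal side of the cell. Npnt encodes nephronectin, a matrix ligand that the complex helps to place, and Itga8 the alpha chain of integrin alpha8 beta1, the receptor for nephronectin. FREM1 is also one of the genes linked to congenital diaphragmatic hernia in people and mice.

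The members did not share 1 course. Fras1, Frem1, Grip1 and Itga8 were lower at E16.5 than at either fold stage, Npnt was higher at E16.5 than at E11.5, and Frem2 passed no test. The promoter windows of 3 of them are shown because these genes stand for the contrasting courses: Frem1 and Itga8, with their lowest means at E16.5, and Npnt, with its highest mean there. The windows run from 250 bases before to 50 bases after a start, 5′ to 3′ on the gene's strand, from RefSeq on GRCm38.p6. Where a gene had several promoter windows, the outermost was taken. The annotated genes of Frem1 and Itga8 begin further upstream, at bases 83052506 and 12301985, so their windows do not sit at the outermost annotated start. The same holds for the windows of Frem2 and Grip1 below, and not for Npnt. They lie at chr4:83052117-83052416 (minus strand) for Frem1, at chr2:12301895-12302194 (minus strand) for Itga8 and at chr3:132950242-132950541 (minus strand) for Npnt. Capitals mark matches to any of 6 motifs searched on both strands, namely the E-box CANNTG, the GC box GGGCGG, the CCAAT box CCAAT, the TATA box TATAAA, the AP-1 site TGANTCA and the GATA site AGATAA.
Frem1: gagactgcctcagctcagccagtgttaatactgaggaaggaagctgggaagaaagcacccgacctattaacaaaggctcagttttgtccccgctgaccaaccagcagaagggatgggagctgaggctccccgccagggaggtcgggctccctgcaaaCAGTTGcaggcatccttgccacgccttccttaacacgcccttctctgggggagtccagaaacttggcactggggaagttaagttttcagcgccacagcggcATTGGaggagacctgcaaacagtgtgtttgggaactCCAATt
Itga8: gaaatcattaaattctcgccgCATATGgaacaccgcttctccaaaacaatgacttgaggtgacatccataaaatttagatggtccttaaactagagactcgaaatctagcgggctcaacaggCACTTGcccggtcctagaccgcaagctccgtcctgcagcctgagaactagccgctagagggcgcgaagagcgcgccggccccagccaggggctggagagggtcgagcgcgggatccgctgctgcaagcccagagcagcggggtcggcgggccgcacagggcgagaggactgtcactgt
Npnt: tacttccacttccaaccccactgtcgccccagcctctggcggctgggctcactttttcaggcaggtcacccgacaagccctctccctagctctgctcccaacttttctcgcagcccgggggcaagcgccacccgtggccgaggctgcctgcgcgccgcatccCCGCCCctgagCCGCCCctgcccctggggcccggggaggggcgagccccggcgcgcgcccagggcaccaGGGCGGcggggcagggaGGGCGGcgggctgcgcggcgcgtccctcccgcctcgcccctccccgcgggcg
In these letters the Frem1 window held 1 E-box and 2 CCAAT boxes, the Itga8 window held 2 E-boxes, and the Npnt window held 4 GC boxes, with no overlap between matches. Of 32851 RefSeq promoter windows of the same length, 72.3% held an E-box, 37.4% a CCAAT box and 35.7% a GC box. The Npnt window had 76.7% G and C and 32 CpG dinucleotides, against 55.7% and 8 for Frem1 and 59.0% and 23 for Itga8. Over all windows the medians were 52.7% and 7. The window of Grip1, which was lower at E16.5, had 77.3% and 38, with 2 GC boxes. That of Frem2 had 60.3% and 13, with no GC box, and no window of Fras1 was available. A high G and C share was thus not particular to the gene that was higher at E16.5, and a link of these letters to the courses was not tested. TATA, AP-1 and GATA letters, held by 13.6%, 7.81% and 11.2% of windows, were found in none of the 3 windows shown.

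Values are log2 intensities, so a difference of 1 is a doubling of signal, and levels of different genes are not comparable because each probe set has its own response. Array medians over genes lay between 7.45 and 7.57 and lower quartiles between 6.4 and 6.64, and none of the 6 members lay below its array's lower quartile on any array. E16.5 arrays 1 to 4 stood apart from arrays 5 to 8, with first principal component scores of 58.9 to 63.9 against 39.1 to 50.5, for which the labels give no reason. E12.5 arrays 2 and 4 had the highest hepatocyte marker levels of their stage, with means of 11.89 and 10.5 over 10 hepatocyte markers against 8.04 to 9.19 on the other E12.5 arrays. The hepatocyte mean was 6.92 to 7.19 per array at E11.5 and 9.75 to 11.65 at E16.5, so it was higher on every array of the later stages than at E11.5. E12.5 array 3 had the highest first component score of its stage, -7.6 against -25.7 to -17.5. Its mean over 10 skeletal muscle markers was also the highest, 11.4 against 8.28 to 9.96. The changes of the members and of the named partner and basement membrane genes, and the counts of called genes, were also computed without these arrays; correlations, neighbouring genes and marker lists were not. In the tests below, a gene was called changed at an adjusted p under 0.05 in a limma fit over all genes, and ± after a log2 change is its standard error. The E16.5 comparisons share the E16.5 arrays and each shares a fold stage with the comparison of the folds, so the 3 comparisons are not independent of each other.

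Fras1, the membrane-anchored core of the complex, was lower in the E16.5 diaphragm than in the folds of either day. Its arrays ran from 9.0 to 9.81 at E11.5 (median 9.54), from 8.38 to 9.38 at E12.5 (median 9.14) and from 8.14 to 8.46 at E16.5 (median 8.30). The lowest E12.5 value, 8.38 on array 4, was the only E12.5 value within the E16.5 range, and the next lowest was 9.09. All E16.5 arrays lay below all E11.5 arrays. The log2 change was -0.80 ± 0.12 for E16.5 versus E12.5 (limma, adjusted p = 1.39e-05) and -1.19 ± 0.12 for E16.5 versus E11.5 (adjusted p = 2.51e-08). On a linear scale the E16.5 signal was 0.573 of that at E12.5 and 0.437 of that at E11.5. Between the folds the change was -0.39 ± 0.12, with adjusted p = 0.163.

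Frem1, the secreted member, had its highest mean at E12.5 and its lowest at E16.5. Its arrays ran from 8.30 to 9.22 at E11.5 (median 8.65), from 8.57 to 10.02 at E12.5 (median 9.13) and from 6.86 to 8.97 at E16.5 (median 7.61). The E16.5 range was the widest of the 3, with an SD of 0.68 against 0.48 at E12.5 and 0.28 at E11.5. Its highest E16.5 values, 8.97 on array 8 and 8.60 on array 6, lay within the ranges of both fold stages. The log2 change was -1.41 ± 0.24 for E16.5 versus E12.5 (limma, adjusted p = 5.56e-05), which is 0.375 of the E12.5 signal. It was -0.92 ± 0.24 for E16.5 versus E11.5 (adjusted p = 0.00417). For E12.5 versus E11.5 it was 0.50 ± 0.24 (adjusted p = 0.345).

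Within E16.5, the values of Frem1 did not overlap between the sets of arrays that stand apart. They were 7.38, 7.43, 7.55 and 6.86 on arrays 1 to 4, and 7.67, 8.60, 7.85 and 8.97 on arrays 5 to 8. No other member separated in this way. Itga8 averaged 7.86 on arrays 1 to 4 and 8.56 on arrays 5 to 8 with overlapping ranges, and the other 4 members differed by at most 0.10 between the sets. The sets also did not overlap in their mean over 10 skeletal muscle markers (12.31 to 12.51 on arrays 1 to 4, 12.01 to 12.20 on arrays 5 to 8) or over 6 endothelial markers (9.28 to 9.49 and 8.48 to 8.95). Their means over 10 mesothelial markers were 7.86 to 8.45 on arrays 1 to 4 and 8.36 to 8.77 on arrays 5 to 8. The part of these cell types in the Frem1 values was not tested. Without arrays 1 to 4 the change of Frem1 for E16.5 versus E11.5 was -0.44 (adjusted p = 0.232), so this call rests on them. For E16.5 versus E12.5 the change was -0.93 (adjusted p = 0.0115) without arrays 1 to 4 and -1.90 (adjusted p = 7.93e-07) without arrays 5 to 8.

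Frem2, the second membrane-anchored member, passed no test in any comparison. Its arrays ran from 7.62 to 8.83 at E11.5 (median 8.32), from 7.93 to 9.07 at E12.5 (median 8.55) and from 8.03 to 8.41 at E16.5 (median 8.22), so that the E16.5 values fell inside the range of each fold stage. The log2 change was -0.29 for E16.5 versus E12.5 (95% interval -0.62 to 0.04, adjusted p = 0.196) and -0.07 for E16.5 versus E11.5 (-0.40 to 0.26, adjusted p = 0.773). For E12.5 versus E11.5 it was 0.23 (-0.10 to 0.56, adjusted p = 0.519). These intervals leave room for changes of up to 0.62 on the log2 scale, so they do not show that the level was constant.

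Grip1, the PDZ scaffold, was lower at E16.5 than at either fold stage. Its arrays ran from 7.25 to 7.84 at E11.5 (median 7.48), from 7.28 to 8.01 at E12.5 (median 7.63) and from 6.82 to 7.33 at E16.5 (median 7.02). Array 8, at 7.33, was the only E16.5 array that reached into the fold stages. The log2 change was -0.63 ± 0.10 for E16.5 versus E12.5 (limma, adjusted p = 3.10e-05) and -0.46 ± 0.10 for E16.5 versus E11.5 (adjusted p = 0.000994). Between the folds it was 0.17 ± 0.10 (adjusted p = 0.436).

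**Figure D1:**
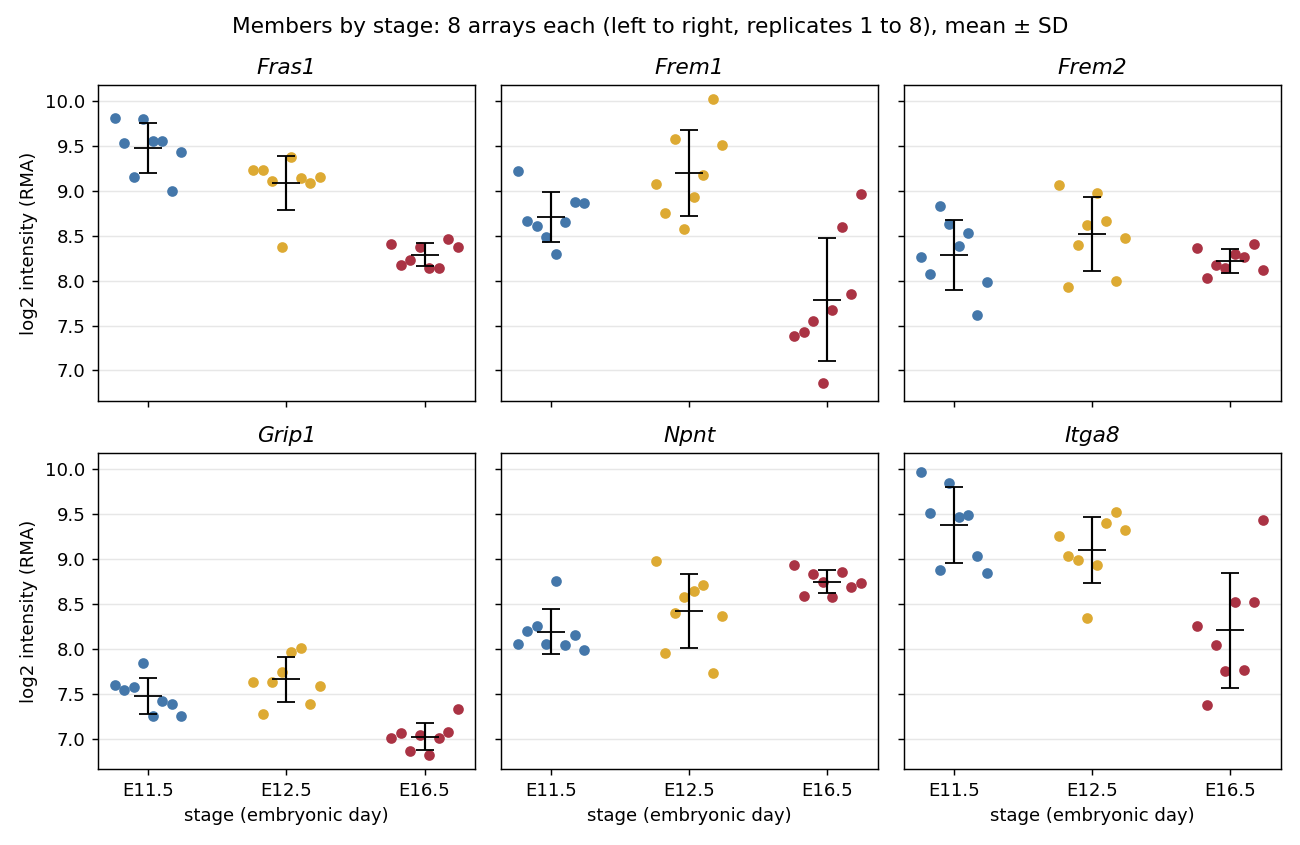
Log2 intensity of each member on the 24 arrays by stage, with 8 points per stage in order of replicate number and the mean with its SD. Fras1 at E16.5 (8.14 to 8.46) lies below every E11.5 array, Frem1 spreads from 6.86 to 8.97 at E16.5, and Npnt narrows to 8.58 to 8.94 at E16.5.

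Npnt, the ligand, was higher and Itga8, its receptor chain, lower at E16.5 than at E11.5. Npnt ran from 7.99 to 8.76 at E11.5 (median 8.10), from 7.73 to 8.98 at E12.5 (median 8.49) and from 8.58 to 8.94 at E16.5 (median 8.74). At E11.5, array 5 at 8.76 lay inside the E16.5 range and the next highest was 8.26. Npnt was higher at E16.5 than at E11.5 by 0.56 ± 0.14 (limma, adjusted p = 0.00274), or 1.47 times the signal. For E16.5 versus E12.5 its change was 0.32 ± 0.14 (adjusted p = 0.0896), which passed without E12.5 array 1 (0.40, adjusted p = 0.0245), and for E12.5 versus E11.5 it was 0.24 ± 0.14 (adjusted p = 0.433).

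Itga8 ran from 8.85 to 9.97 at E11.5 (median 9.48), from 8.34 to 9.52 at E12.5 (median 9.14) and from 7.38 to 9.44 at E16.5 (median 8.15). E16.5 array 8 at 9.44 and arrays 5 and 7 at 8.52 each lay within the E12.5 range, and the other E16.5 arrays were at 8.26 or below. Array 8 also had the highest Frem1 and Grip1 values of its stage. The log2 change of Itga8 was -0.89 ± 0.23 for E16.5 versus E12.5 (limma, adjusted p = 0.00457) and -1.17 ± 0.23 for E16.5 versus E11.5 (adjusted p = 0.000285), with 0.443 of the E11.5 signal left. Without E16.5 arrays 1 to 4 the change from E12.5 was -0.54 (adjusted p = 0.188), and without arrays 5 to 8 it was -1.24 (adjusted p = 0.000242). Between the folds it was -0.28 ± 0.23 (adjusted p = 0.580).

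Counted together, 0 of the 6 members were called in E12.5 versus E11.5, where 0.388% of all genes were called (0.331% higher and 0.0568% lower). Without adjustment 1 member was higher (Frem1) and 1 lower (Fras1), where 14.4% of all genes passed. In E16.5 versus E12.5, 4 members were called, all lower, where 27.1% of all genes were called and 15.6% were called lower. In E16.5 versus E11.5, 4 were lower and 1 was higher, where 33.5% of all genes were called, 19.6% lower and 13.8% higher. The arrays of the stages did not overlap for 0 members in E12.5 versus E11.5, 0 in E16.5 versus E12.5 and 1 (Fras1) in E16.5 versus E11.5, against 0.129%, 10.1% and 9.08% of all genes. The median log2 change of the members was -0.72 for E16.5 versus E12.5 and -0.69 for E16.5 versus E11.5, beside -0.02 and -0.08 over all genes. Without E16.5 arrays 1 to 4 the counts were 3 and 4 members called, and without E12.5 arrays 2 and 4 they were 4 and 5.

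**Figure D2:**
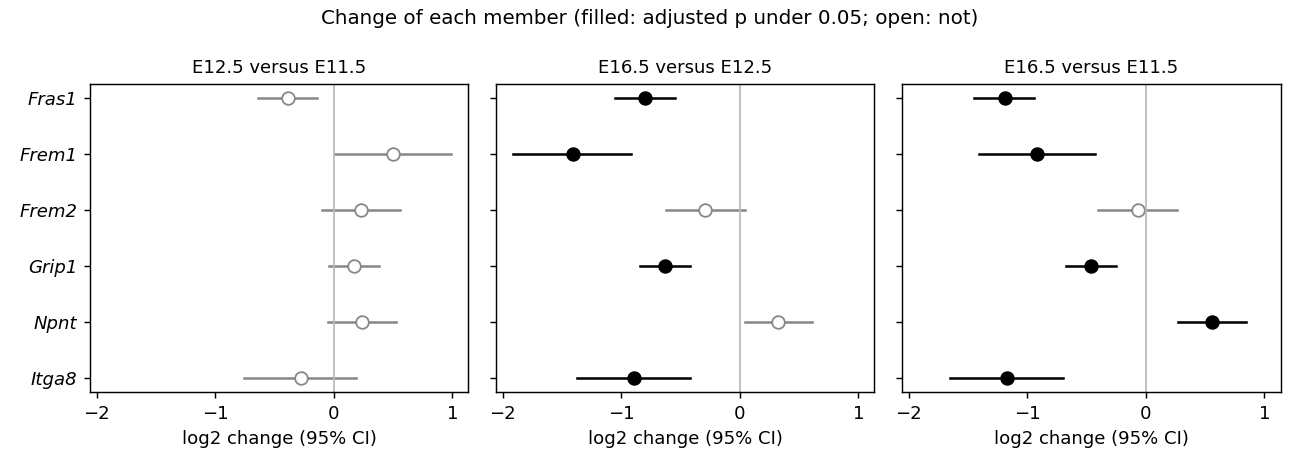
Log2 change of each member in the 3 comparisons, with 95% intervals; filled points passed limma's threshold over all genes and open points did not. No member passed in E12.5 versus E11.5, and Fras1, Frem1, Grip1 and Itga8 lie below 0 in both E16.5 comparisons while Npnt lies above it.

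Arrays of the same stage did not rank alike for all members. At E12.5, array 1 was highest for both Frem2 (9.07) and Npnt (8.98), and arrays 2 and 7 were the lowest pair for Frem2 (7.93 and 8.0), Npnt (7.96 and 7.73) and Grip1 (7.28 and 7.39). Array 7 was instead the highest of its stage for Frem1 (10.02) and Itga8 (9.52). Array 4 was the lowest of its stage for Fras1 (8.38), Frem1 (8.57) and Itga8 (8.34) and not for the other 3 members. Over the 24 arrays, after subtracting each stage's mean, Pearson's r was 0.62 for Frem2 with Npnt, 0.58 for Fras1 with Itga8, 0.53 for Frem1 with Itga8 and 0.52 for Frem2 with Grip1, the highest of 15 pairs. Fras1 with Frem1 had 0.10 and Frem1 with Frem2 -0.23. Within single stages, of 8 arrays each, r of the highest pairs varied. At E11.5, E12.5 and E16.5 it was 0.15, 0.94 and 0.33 for Frem2 with Npnt, and 0.86, 0.68 and 0.44 for Fras1 with Itga8. For Frem1 with Itga8 it was 0.08, 0.73 and 0.59, and for Frem2 with Grip1 0.46, 0.76 and -0.3. These values describe likeness over arrays that share their tissue pieces and have no test.

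Among the 16905 other named genes, those most like Fras1 over the 24 arrays were Sulf1, a sulfatase of heparan sulfate (r = 0.94), Aldh1a2, the retinoic acid synthesis enzyme (0.93), and Myh10, a nonmuscle myosin heavy chain (0.92). Aldh1a2 was also second for Itga8 (0.87), between Tgs1 (0.90) and Fndc3a (0.86). Aldh1a2 had a log2 change of -2.12 ± 0.35 for E16.5 versus E12.5 (limma, adjusted p = 4.21e-05), larger in size than that of any member. Grip1 was most like Nap1l2 (0.90), the actin crosslinker Actn1 (0.87) and Stra6, the cell surface receptor for retinol carried in blood (0.86). Frem1 was most like Ptges3 (0.88), Rbm3 (0.86) and the adhesion molecule Alcam (0.86). The opposite course of Npnt was matched by Penk (0.80), the glycogen primer Gyg (0.78) and Zfp651 (0.77). For Frem2, which had no clear course, the highest values were lower, with Zfp697 (0.69), Slc30a5 (0.68) and Neo1 (0.67). Over deviations from stage means the nearest genes were Zfp595, Krcc1 and Slc37a3 for Fras1 (0.81, 0.81 and 0.80), Bub1b, Lhfpl1 and Arhgap15 for Frem1 (0.76, 0.74 and 0.72), and Vti1b, Upk1b and Ppp2r2b for Frem2 (0.72, 0.72 and 0.70). They were Nap1l2, Aopep and Ube2cbp for Grip1 (0.80, 0.71 and 0.70), Lrrc4, Adamts19 and Prrx1 for Npnt (0.75, 0.73 and 0.67), and Tmtc2, Trim12a and Atxn3 for Itga8 (0.81, 0.78 and 0.78). Nap1l2, Lhfpl1 and Arhgap15 lay below the array's lower quartile on at least 6 of 8 arrays of each stage, and Trim12a on at least 4, so their likeness rests on signals near the low end. All genes named here for Fras1 had their lowest E12.5 value on array 4, as Fras1 itself did (8.38). So did Itga8 (8.34) and the genes named for it other than Atxn3. How far these likenesses rest on that array was not tested.

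The wider neighbourhood of the complex was read from 21 measured genes, comprising the paralogs Frem3 and Grip2, other matrix proteins, chains of integrins that bind the same RGD motif as alpha8 beta1, proprotein convertases, and the signalling genes Gdnf, Ret, Fgf10 and Slit3. In E12.5 versus E11.5 none of the 21 was called by limma (1 higher and 1 lower unadjusted). Of all genes, 0.388% were called in that comparison and 14.4% passed unadjusted. In E16.5 versus E12.5, 4 rose, 5 fell and 12 did not pass, where 27.1% of all genes were called, with a median log2 change of -0.06 beside -0.02 over all genes. In E16.5 versus E11.5, 4 rose, 6 fell and 11 did not pass, where 33.5% of all genes were called (median -0.09, beside -0.08). The count for E16.5 versus E12.5 was 5 in all without E16.5 arrays 1 to 4.

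Frem3, the remaining Frem gene, lay below the lower quartile on all 8 arrays of every stage, at 5.25 to 5.91. The second scaffold Grip2 rose to a mean of 7.68 at E16.5, against 7.23 at E12.5 (log2 change 0.45 ± 0.10, limma, adjusted p = 0.00132), the reverse of Grip1. Itgb1, the beta chain that pairs with Itga8 and with many other alpha chains, rose by 0.24 ± 0.08 for E16.5 versus E12.5 (adjusted p = 0.0187) and by 0.39 ± 0.08 for E16.5 versus E11.5 (adjusted p = 0.000267). The first of these calls ended under 4 of 36 alternatives (adjusted p up to 0.15). The alpha and beta chains of the nephronectin receptor thus changed with opposite sign.

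Of the other integrin chains, Itgb6, an epithelial partner of alpha v, rose by 1.60 ± 0.18 for E16.5 versus E12.5 (limma, adjusted p = 1.33e-07). At E11.5, 6 of 8 arrays had Itgb6 below the lower quartile, so its change of 2.16 from that stage is at best a lower bound. Of 10 epithelial markers 3 rose in E16.5 versus E12.5 and 7 did not pass, where 27.1% of all genes were called. Their median log2 change was 0.05. The list mean was 6.90 to 7.54 per array at E16.5 and 6.43 to 6.74 at E12.5. The 3 were Sftpc, a surfactant gene of lung epithelium, with means of 10.60 at E16.5 and 5.80 at E12.5, Trp63 with 8.12 and 7.47, and Cdh1 with 7.33 and 6.92. Epcam, which defines epithelia, was below the lower quartile on 6 of 8 E16.5 arrays and 5 of 8 E12.5 arrays. The part of epithelial tissue in the Itgb6 value was not tested. Itgb8, another partner of alpha v, fell by 1.01 on the log2 scale (SE 0.17, adjusted p = 5.71e-05), and no E16.5 array overlapped E12.5.

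Among ligands, Fn1, which encodes fibronectin, fell to a mean of 10.95 at E16.5, against 11.46 at E12.5 (-0.51 ± 0.08, limma, adjusted p = 1.12e-05), without overlap. Vtn, which encodes the plasma protein vitronectin, rose by 1.16 ± 0.34 (adjusted p = 0.0121), and not past the threshold without E16.5 arrays 1 to 4 (1.08, adjusted p = 0.0936). Vtn is made mainly by liver, and its highest E12.5 value (10.36) was on array 2, the array with the highest hepatocyte mean. Of 10 hepatocyte markers 9 rose in the same comparison, where 27.1% of all genes were called. In E12.5 versus E11.5, 6 of the 10 rose and none fell, where 0.388% of all genes were called. The part of liver tissue in the Vtn value was not tested. Slit3, a secreted guidance factor whose loss in mice gives diaphragmatic hernia, fell by 0.64 (SE 0.12, adjusted p = 0.000198). Fgf10, a mesenchymal growth factor, fell by 0.61 (SE 0.19, adjusted p = 0.0163), with -0.38 and adjusted p = 0.321 without E16.5 arrays 1 to 4. For E16.5 versus E11.5 the call of Fgf10 (-0.52, adjusted p = 0.0367) ended under 15 of 36 alternatives (adjusted p up to 0.41).

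Of 33 other basement membrane genes measured, 16 rose, 3 fell and 14 did not pass in E16.5 versus E12.5, with a median log2 change of 0.17 beside -0.02 over all genes. Over all 19351 genes, 27.1% were called in this comparison, 2223 higher and 3018 lower. In E16.5 versus E11.5, 14 rose, 5 fell and 14 did not pass (median 0.08, beside -0.08), where 33.5% of all genes were called, 2680 higher and 3799 lower. In E12.5 versus E11.5 none was called by limma (3 higher and 3 lower unadjusted). Over all genes 0.388% were called there and 14.4% passed unadjusted. Without E16.5 arrays 1 to 4 the count called for E16.5 versus E12.5 was 10.

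The largest rise on this list was in Lama2, the laminin alpha chain of muscle basement membrane, at a mean of 10.14 at E16.5, against 8.31 at E12.5 (log2 change 1.83 ± 0.12, limma, adjusted p = 1.02e-11). Col15a1, a collagen of muscle and vessel basement membranes, rose by 0.97 ± 0.12, Dag1, the laminin receptor dystroglycan, by 0.93 ± 0.18 and Col4a1, a network collagen, by 0.90 ± 0.12, all without overlap between E16.5 and E12.5 arrays. Lama4, a laminin chain of vessels and muscle, rose by 0.88 ± 0.12 for E16.5 versus E11.5. The largest fall was in Fbln1, the matrix protein fibulin 1, at a mean of 8.43 at E16.5, against 9.25 at E12.5 (-0.82 ± 0.11, adjusted p = 2.67e-06). Agrn, the heparan sulfate proteoglycan agrin, fell by 0.52 (SE 0.12), and Itga3, a laminin-binding integrin chain of epithelia, by 0.31 (SE 0.11). The call of Itga3 ended under 13 of 36 alternatives (adjusted p up to 0.152) and that of Agrn without E16.5 arrays 5 to 8 (adjusted p = 0.0772). Col4a5, a network collagen, fell by 0.30 (SE 0.07, adjusted p = 0.00255) for E16.5 versus E11.5.

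**Figure D3:**
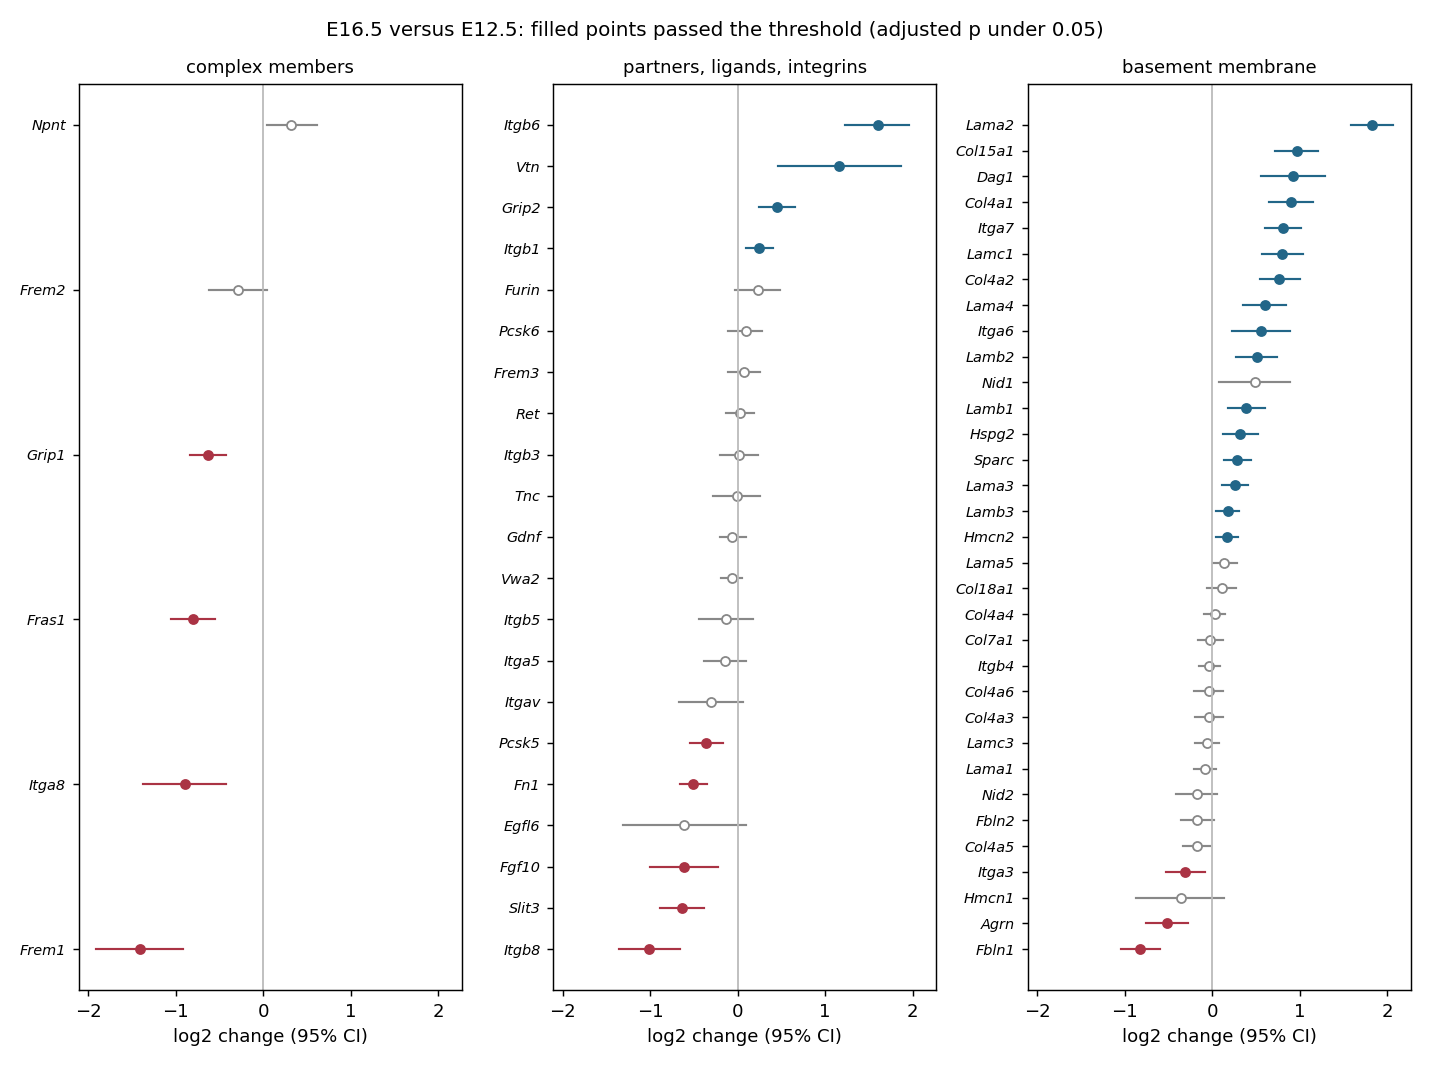
Log2 change for E16.5 versus E12.5, with 95% intervals, of the 6 members, the 21 measured partner genes and the 33 measured basement membrane genes. Filled points passed limma's threshold; the members' filled points all lie below 0, while 16 of the 19 filled basement membrane points lie above it.

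Markers of the tissue's cell types changed over the same stages. For E16.5 versus E12.5, to which the counts here belong, 27.1% of all genes were called and 15.6% were called lower. Of 10 fold mesenchyme markers, 6 fell and 1 rose in E16.5 versus E12.5, with list means of 7.86 to 8.14 per array at E16.5 and 8.45 to 8.83 at E12.5, and Gata4 averaged 8.77 and 9.71. Of 10 mesothelial markers, 3 rose and 2 fell, with overlapping list means of 7.86 to 8.77 at E16.5 and 8.05 to 8.70 at E12.5. Msln averaged 7.76 at E16.5 and 7.02 at E12.5, and Wt1 8.94 and 10.37. Of 10 skeletal muscle markers, 8 rose and 1 fell, with list means of 12.01 to 12.51 at E16.5 and 8.28 to 11.4 at E12.5, and Acta1 averaged 13.33 and 9.79. Of 6 endothelial markers 5 rose, with list means of 8.48 to 9.49 at E16.5 and 7.82 to 8.51 at E12.5, and Pecam1 averaged 9.94 and 8.41. The smooth muscle, neuron, Schwann cell, erythroid and macrophage lists had 2 of 6, 2 of 8, 1 of 4, 1 of 4 and 1 of 6 genes called. In smooth muscle 1 rose and 1 fell, the neuron, Schwann cell and erythroid calls were falls, and the macrophage call was a rise. The erythroid fall was in the globin gene Hbb-bh1, with means of 6.3 at E16.5 and 11.97 at E12.5. The other 3 erythroid markers did not pass, and the list's median log2 change was 0.14. The part of shifts in cell types in the members' changes was not tested.

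**Figure D4:**
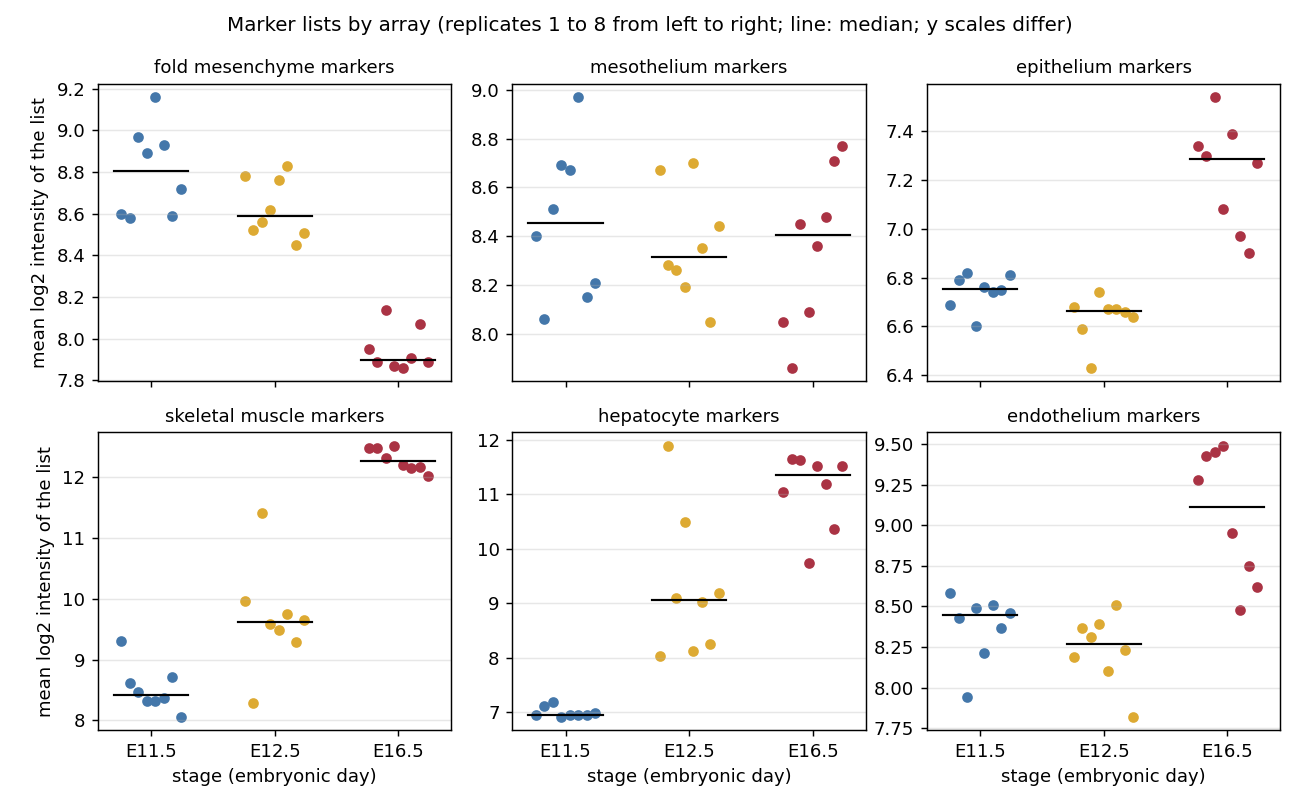
Mean log2 intensity of 6 marker lists on each array by stage, in order of replicate number, with the median as a line and a y scale of its own in each panel. Fold mesenchyme markers are lower at E16.5 (7.86 to 8.14) than at E12.5 (8.45 to 8.83), skeletal muscle markers are higher (12.01 to 12.51 against 8.28 to 11.4), and mesothelial markers overlap.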

How the data were processed

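RNA of 24 laser-captured samples was amplified and hybridised to 1 Affymetrix array each, grouped by stage as the titles give it. The values the authors deposited are log2 intensities; per the submitters' processing notes the tools were Affymetrix Expression Console 1.1, RMA and R 2.9.2, with no roles given, and the log2 scale was read from the range of 2.56 to 14.12. RMA corrects background, equalises array distributions and summarises probes, so values are relative to the rest of the sample. Of 24200 probe sets, 20760 with 1 gene symbol were kept, the brightest per gene, giving 19351 genes with no filter on low values; each member had 1 such probe set. Stage differences came from the R package limma 3.58.1 (R 4.3.3, functions lmFit and eBayes, all 24 arrays, no covariate, two-sided, Benjamini-Hochberg over all genes), tested on simulated data; tables were made with Python 3.11.15 and pandas 2.3.3. The members and the 13 gene lists (144 entries, of which some were not analysed here) were chosen with earlier results of these data known.

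Genes were named by rule: all members, up to 4 rises and 4 falls per list and comparison among called partner and basement membrane genes, the 3 genes most like each member by each measure (unnamed gene models, receptors of smell and small RNAs left out), and the first gene of marker lists. Frem3, Wt1, Sftpc, Trp63, Cdh1 and Hbb-bh1 were added after their values were seen. Alternatives were 12 other settings and leaving out each array. The array number limits the precision.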

Additional observations from a re-analysis of the deposited data

Results flagged for a closer look

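Within each stage, an array was looked at again when its gap to the nearest array, divided by the range of the stage, exceeded Dixon's 95% critical value for 8 arrays. Of 18 groups (6 members at 3 stages) 2 held such an array, and chance alone gives about 1 in 20. Fras1 at E12.5 had array 4 at 8.38, with the others at 9.09 to 9.38. Npnt at E11.5 had array 5 at 8.76, with the others at 7.99 to 8.26. Without these arrays the calls of Fras1 and Npnt for E16.5 were on the same side of the threshold.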

How the results depend on the processing

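Of 1764 recomputed changes (49 named gene changes under 36 settings), 1725 kept their direction and side of the threshold, 37 no longer passed, 1 newly passed (Npnt, E16.5 versus E12.5, 0.40 without E12.5 array 1) and 1 changed sign (Frem2, E16.5 versus E11.5, 0.01 without E11.5 array 3 and -0.16 without E11.5 array 7, not called either way). Without E16.5 arrays 1 to 4 the counts were 3479 of all genes, 5 partner and 10 basement membrane genes for E16.5 versus E12.5, and 4265 of all genes for E16.5 versus E11.5, in place of 5241, 9, 19 and 6479. Without arrays 5 to 8, which leaves as many arrays, they were 4918, 10, 17 and 5481; the cause was not tested. For E12.5 versus E11.5 the count of 75 of all genes was 9 with only the 2 stages compared, 43 with replicate number as a block, 49 after quantile normalization again, 120 with array weights, 114 without E12.5 arrays 2 and 4, 32 without E16.5 arrays 1 to 4 and 34 without arrays 5 to 8. Leaving out 1 array gave 26 to 151, with changes of over 1.5 times for E11.5 arrays 4, 5, 7 and 8 and E12.5 arrays 1, 2, 3, 4, 6 and 8; the cause was not tested. Of the 75 genes called 85.3% were higher, against 62.7% of the 83 called with arrays centred on the median. With centring on the 75th percentile it was 51.6% of the 64 called. Without E12.5 arrays 2 and 4, 1 basement membrane gene was called at this step (Lama4, 0.45, adjusted p = 0.0282). With the replicate block 0, 4 and 5 members were called in the 3 comparisons, as without it. Same-numbered arrays of different stages had correlations of deviations over genes of -0.281 to 0.093, and 2 of 24 arrays correlated best with their own number. No pairing by number was thus seen over all genes, and a shared effect limited to fewer genes was not tested. Leaving out 1 array gave 0, 4 to 5, and 5 members called.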
